A study of Homo sapiens with 20 samples.

Results

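Adherent cells of the pool labelled KOs were compared with adherent wild type cells (wt) of SUM159PT, an established triple-negative breast cancer line with mesenchymal traits. The comparison used 6 of the 20 libraries, chosen by sample title: 3 of the labelled KOs in adherent culture (2D) and 3 of wt in 2D. In the KOs strategy a single guide RNA was aimed at the transcription start site of NNMT, and several edited clones were mixed into 1 oligoclonal pool. The labels do not describe wt as such a mix, so traits of the founding clones and effects of the edit cannot be told apart. All these cells grew in Ham's F12 medium with fetal calf serum, insulin, hydrocortisone and antibiotics and were collected before full confluency. Beside them stand 3 adherent libraries of KOd, a second oligoclonal pool in which a pair of guides removed exon 1 of NNMT, and 3 libraries each of labelled KOs and wt grown as secondary tumorspheres in suspension (3D).

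The libraries differed in more than their labels. The labelled KOs libraries held 39789580 to 43744817 counted reads and the wt libraries 27432256 to 27992072. Nuclear ribosomal RNA genes took 0.696% to 2.38% of reads in the labelled KOs and 2.83% to 6.69% in wt, with no overlap. Short genes were relatively higher in the labelled KOs and long genes relatively lower. Of 5 equal groups of tested genes, the shortest (deposited length up to 1750 bases) had a median log2 fold change against wt of 0.41 and the longest (from 5578 bases) one of -0.29, where KOd had 0.02 and -0.02. Where removing this length trend moved a printed count of a gene list by over 1.5 times, the counts without it are given beside that list; its source was not tested. Replicate A of the labelled KOs stood apart, with a median absolute log2 difference of 0.357 and 0.426 from replicates B and C, which differed by 0.191. Pairs of wt replicates differed by 0.108 to 0.151, and labelled KOs and wt libraries by 0.483 to 0.537. Whether replicates came from separate cultures is not in the labels. P-values measure only spread between libraries, estimated over all 20 libraries in 7 groups rather than from the compared 6 alone. The wider spread of the labelled KOs is thus averaged with that of the other groups. Below, runs of 3 levels are replicates A, B and C, and a value with ± is a log2 fold change of labelled KOs over wt with its SE.

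**Figure D1:**
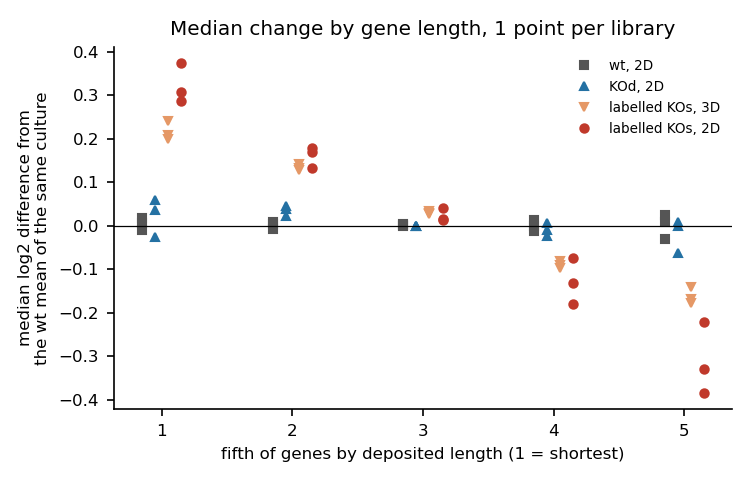
Median log2 difference of each library from the mean of the wt libraries of the same culture (y axis), for 5 equal groups of tested genes ordered by deposited gene length (x axis). Each point is 1 library; the labelled KOs fall from the shortest to the longest group, from 0.287 to 0.373 down to -0.383 to -0.22 in 2D, while the wt and KOd libraries stay near 0.

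NNMT encodes nicotinamide N-methyltransferase, a cytosolic enzyme that moves a methyl group from S-adenosylmethionine to nicotinamide. It thereby draws on both the methyl donor used by DNA and histone methyltransferases and the vitamin from which cells rebuild NAD. The enzyme is abundant in mesenchymal and fibroblast-like cells and in many invasive carcinomas.

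NNMT mRNA (chr11:114257806-114313536, hg38) did not tell the labelled KOs from wt. Levels were 130.1, 113 and 76 CPM (counts per 1e6 reads of the scaled library) in replicates A, B and C of the labelled KOs and 120.4, 128 and 102 CPM in wt. The groups overlapped, and the log2 fold change was -0.14 ± 0.17 (SE; adjusted p = 0.518, edgeR's quasi-likelihood test with Benjamini-Hochberg adjustment). In KOd the level was 4.39, 4.64 and 4.62 CPM, below every other adherent library named here, and labelled KOs stood above KOd by 4.54 ± 0.21 (adjusted p = 2.05e-11). The mRNA level therefore does not check the KOs label, and the group is called the labelled KOs throughout. Without 3 libraries that stand apart (replicate A of the labelled KOs and, in 3D, replicate C of both wt and KOd) the fold change of NNMT was -0.31 (adjusted p = 0.0227), and with the length trend removed it was -0.42 (adjusted p = 0.0469).

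Across the genome, 4524 of 16323 tested genes (27.7%) were higher and 4157 (25.5%) lower in the labelled KOs than in wt at an adjusted p under 0.05, 53.2% in all. A change of at least 2-fold was reached by 1310 higher genes (8.03%) and 1435 lower genes (8.79%). The 3 labelled KOs libraries lay entirely above the 3 wt libraries for 25.2% of tested genes and entirely below them for 26.3%. The median log2 fold change over all tested genes was 0.06. With changes this common, a gene list is described below by its own counts set beside these shares.

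The neighbourhood of NNMT on the long arm of chromosome 11 changed on 1 side. Of 52 tested genes within 10 Mb before NNMT, 33 were lower and 4 higher, with a median log2 fold change of -0.90. Of 71 genes within 10 Mb after it, 15 were lower and 20 higher, with a median of 0.07. Between 10 and 25 Mb before NNMT 35 of 44 genes were lower and the median reached -1.62. Over the whole chromosome, 480 of 893 tested genes (53.8%) were lower and 75 (8.4%) higher, with a median of -0.52. This shift was alike in the 3 labelled KOs libraries, whose chromosome medians ran from -0.525 to -0.502. In 3D the labelled KOs libraries had -0.208 to -0.158 on the same chromosome, and adherent KOd libraries had -0.031 to 0. DNA copy number was not measured.

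**Figure D2:**
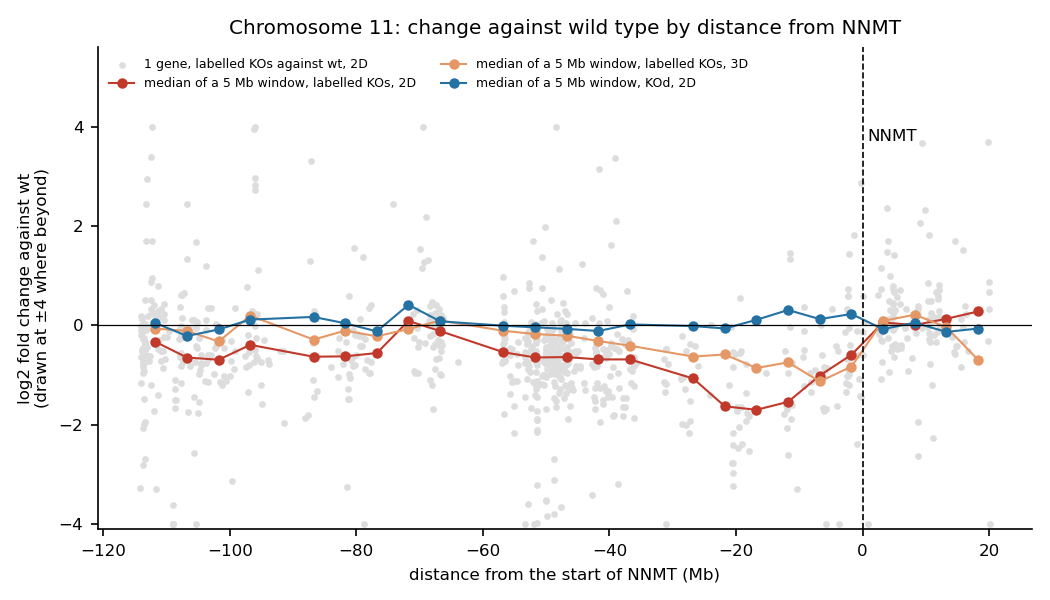
Log2 fold change against wt (y axis) of tested genes of chromosome 11 by distance from the start of NNMT (x axis, Mb); grey points are single genes in 2D, lines join medians of 5 Mb windows with at least 10 tested genes. The labelled KOs in 2D reach a window median of -1.7 before NNMT and return to about 0 after it, where KOd shows no such step.

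Tested genes within 1 Mb of NNMT went both ways on either side of it. Before it, USP28, a deubiquitinase that stabilises MYC, lay at 22.7, 18.6 and 19.2 CPM in the labelled KOs and 57.1, 54.5 and 51.6 CPM in wt, a log2 fold change of -1.43 ± 0.09 (adjusted p = 8.75e-10). ZW10, a kinetochore checkpoint protein, had 19.9, 27.8 and 32.5 against 56.9, 52 and 60.7 CPM (-1.08 ± 0.13, adjusted p = 2.21e-06). ZBTB16, a zinc-finger repressor induced by glucocorticoids, was also lower (-1.45 ± 0.26, adjusted p = 1.60e-04), as was TTC12 (-0.59 ± 0.13, adjusted p = 0.00112). Every labelled KOs library was below every wt library for USP28, ZW10, ZBTB16 and TTC12. Just after NNMT, RBM7, an RNA-binding subunit of the nuclear exosome targeting complex, was lower (-0.60 ± 0.11, adjusted p = 1.28e-04) and C11orf71 higher (0.59 ± 0.17, adjusted p = 0.00623), while the exonuclease gene REXO2 had 94.6, 121 and 139 CPM beside 114, 110.0 and 115 CPM in wt, with an adjusted p of 0.632; without replicate A it was at 0.20 (adjusted p = 0.0484). HTR3A and NCAM1, also before NNMT, were higher from wt means of only 0.211 and 0.113 CPM (2.86 ± 0.48 and 1.81 ± 0.72), and NCAM1 overlapped between groups; without replicate A NCAM1 was at 0.53 (adjusted p = 0.511), and it also missed the threshold without any 1 wt replicate (adjusted p from 0.087 to 0.096). HTR3A was at 3.73 without wt replicate A. The neuronal genes DRD2 and ANKK1, at wt means of 0.037 and 0.0614 CPM, had adjusted p of 0.957 and 0.104. ANKK1 was at -2.40, passed the threshold without wt replicate C (-2.93, adjusted p = 0.043) and was at -4.07 without replicate A (adjusted p = 0.0592).

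CADM1 (chr11:115169236-115504415), a cell adhesion molecule of the immunoglobulin family whose loss is common in carcinomas, lies after NNMT and had the lowest fitted log2 change of the tested genes on chromosome 11. It had 0.119, 0 and 0 CPM in the labelled KOs against 27.4, 29.7 and 55.8 CPM in wt. That is 5 reads in 3 labelled KOs libraries against 2970 reads in wt, a ratio of 853 (95% Poisson interval 365 to 2626, counting error only). All 5 reads were in replicate A, and B and C had none, so the fitted log2 change moved from -9.63 to -13.21 without A. KOd held no CADM1 read in any adherent library.

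**Figure D3:**
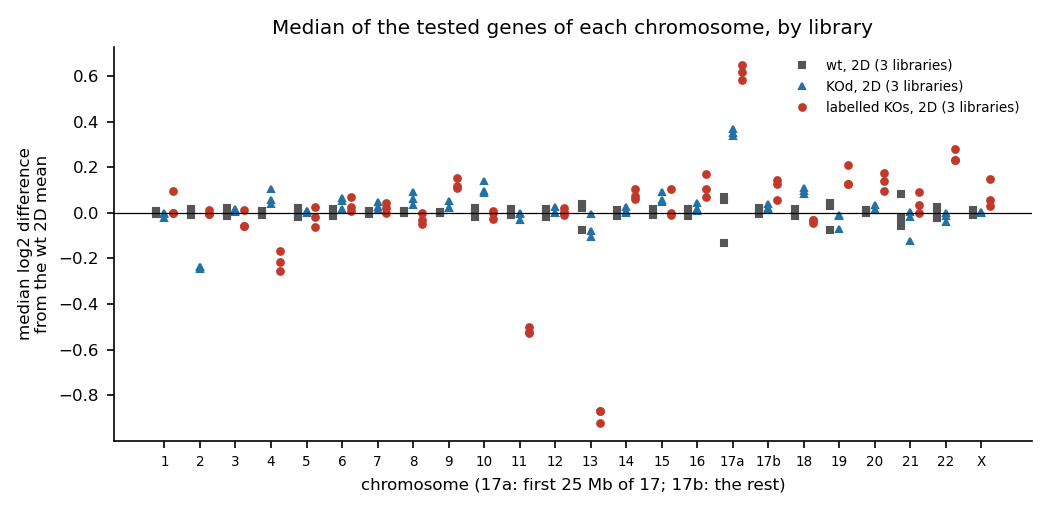
Median log2 difference from the mean of the adherent wt libraries (y axis) over the tested genes of each chromosome (x axis), 1 point per library; chromosome 17 is split at 25 Mb. The labelled KOs libraries sit at -0.525 to -0.502 on chromosome 11, -0.921 to -0.869 on chromosome 13 and 0.582 to 0.65 on the first 25 Mb of chromosome 17.

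Other regions moved as blocks too, in the same libraries. The bounds of the regions below were taken from the 5 Mb windows of these same data. On chromosome 13, 196 of 283 tested genes (69.3%) were lower and 9 higher, with a median of -0.91. The lowest stretch, from 25 to 45 Mb, had a median of -1.34 in the labelled KOs and -0.57 in KOd. Further along the chromosome RB1, the retinoblastoma tumour suppressor, was at 39.9, 33.7 and 36.4 CPM against 83.8, 79.3 and 73.8 CPM (-1.11 ± 0.08, adjusted p = 9.65e-09). On the first 25 Mb of chromosome 17, 186 of 299 genes (62.2%) were higher and 14 lower, with a median of 0.71, beside 0.35 in KOd. PSMB6, a catalytic proteasome subunit of that region, rose by 1.19 ± 0.11 (adjusted p = 1.52e-07). Beyond 165 Mb on chromosome 4, 47 of 68 genes were lower (median -1.09). In KOd that median was 0.27. Beyond 150 Mb on chromosome X, 62 of 86 genes were higher (median 0.94; KOd 0.39). The X-linked sterol enzyme NSDHL of that end had 150.1, 90.7 and 103 CPM against 49.4, 47 and 41 CPM (1.32 ± 0.15, adjusted p = 1.48e-06). Of 498 windows of 5 Mb with at least 10 tested genes, 63 had a median above 0.3 and 93 a median below -0.3. Removing all genes of chromosomes 11, 13 and 17 left 4091 higher and 3244 lower genes among 14167.

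Several genes expressed in wt were almost unread in the labelled KOs. By the rule of at least 5 CPM on average in one group and under 0.1 CPM in every library of the other, these were BEX1, MEST, F10, MARCHF1, H2AJ and CSMD1. BEX1, a small adaptor protein of neural and stem-like cells, had no read in the labelled KOs and 32.8, 35.5 and 82.2 CPM in wt, at least 1887-fold lower against a floor of 3 reads over the group. MEST, an imprinted hydrolase-like gene expressed from the paternal copy, had 3 reads against 2429 in wt (ratio 1162, interval 398 to 5637). F10, coagulation factor X, had 2 reads against 832 (ratio 597, interval 165 to 4932). H2AJ, a replication-independent histone H2A, had 8 reads against 2103 (ratio 377, interval 192 to 874). MARCHF1, a membrane ubiquitin ligase, had 1 read against 695 (ratio 998, interval 179 to 39411), and CSMD1, a complement-control membrane protein, 5 against 652 (ratio 187, interval 80.2 to 577). In KOd the same 6 genes were also below wt, at means of 0.0116, 0.853, 0.046, 2.1, 0.149 and 0.61 CPM in the order BEX1, MEST, F10, H2AJ, MARCHF1 and CSMD1. CADM2, a neuronal adhesion molecule related to CADM1, went the other way, from 0, 0.0373 and 0.0392 CPM in wt to 12, 2.23 and 1.65 CPM, with replicate A well above B and C. On so few reads, leaving out 1 library moves the fitted log2 changes, which depend on the prior count: CADM2 from 7.52 to 6.06 without replicate A, MEST from -9.99 to -9.40 without A and -10.85 without C, and without B MARCHF1 from -9.44 to -11.12 and CSMD1 from -7.42 to -8.10.

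Core promoters of 3 genes that were off or among the deepest falls, and have 1 annotated start, are shown. They were picked because each holds many CG pairs, the sites at which promoter methylation can accompany silencing. Their counts therefore do not describe the other genes that were off, and methylation was not measured in these libraries. Each line gives 250 bases before to 50 bases after the start, on the gene's strand, from RefSeq's GRCh38.p14, with every CG pair in capitals. BEX1 lies at chrX:103064122-103064421 (minus strand), DNAJC15 at chr13:43023336-43023635 (plus strand) and H2AJ at chr12:14774155-14774454 (plus strand).
BEX1: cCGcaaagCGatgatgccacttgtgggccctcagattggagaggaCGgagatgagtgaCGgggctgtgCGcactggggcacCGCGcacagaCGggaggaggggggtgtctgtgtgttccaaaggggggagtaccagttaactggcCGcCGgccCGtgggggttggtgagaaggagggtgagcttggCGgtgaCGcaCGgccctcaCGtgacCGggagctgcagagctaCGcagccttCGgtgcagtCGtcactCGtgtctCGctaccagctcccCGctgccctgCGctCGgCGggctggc
DNAJC15: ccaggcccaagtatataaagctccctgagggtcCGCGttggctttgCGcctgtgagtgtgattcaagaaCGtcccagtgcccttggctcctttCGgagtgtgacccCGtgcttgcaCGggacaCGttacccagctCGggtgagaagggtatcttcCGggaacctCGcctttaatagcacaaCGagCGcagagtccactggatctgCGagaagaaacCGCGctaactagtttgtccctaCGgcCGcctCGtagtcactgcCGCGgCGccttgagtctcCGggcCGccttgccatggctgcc
H2AJ: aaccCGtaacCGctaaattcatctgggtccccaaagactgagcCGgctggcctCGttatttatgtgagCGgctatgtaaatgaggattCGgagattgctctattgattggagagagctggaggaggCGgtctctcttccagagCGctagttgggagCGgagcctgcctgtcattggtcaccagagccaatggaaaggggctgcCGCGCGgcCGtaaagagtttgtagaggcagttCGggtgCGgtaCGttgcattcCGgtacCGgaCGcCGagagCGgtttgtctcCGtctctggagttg
The windows hold 25, 24 and 22 CG pairs, where the median of 35116 RefSeq promoters of the same length is 14. As many as in BEX1 are held by 32% of all promoters, as many as in DNAJC15 by 33.9% and as many as in H2AJ by 37.7%, so their density is above the middle but not rare. The CG pair reads the same on both strands.

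Among genes above the expression minimum, the deepest falls were of a testis antigen, a mitochondrial co-chaperone and matrix genes. MAGEC1, a cancer-testis antigen of chromosome X, lay at 0.74, 1.29 and 0.908 CPM in the labelled KOs and 110.1, 103 and 155 CPM in wt (-6.97 ± 0.22, adjusted p = 6.16e-13). DNAJC15, a co-chaperone of the inner mitochondrial membrane whose promoter is printed above, had 1.41, 1.85 and 3.07 CPM against 85.9, 86 and 94.6 CPM (-5.41 ± 0.17, adjusted p = 6.16e-13), with KOd at 46.3, 51.6 and 50.2 CPM. It lies in the 25 to 45 Mb stretch of chromosome 13, where 69 of 90 tested genes were lower (median -1.34). PARM1, a mucin-like membrane protein, fell (-5.28 ± 0.36, adjusted p = 3.34e-09) from a wt mean of 34.9 CPM. LDOC1 and XAGE2 on chromosome X fell (-4.09 ± 0.18 and -3.86 ± 0.25). FGF13, an intracellular FGF homologue that binds sodium channels and microtubules, had 3.56, 2.52 and 1.76 CPM against 43, 44.3 and 45.3 in wt and 31.4, 32.9 and 44.2 in KOd. The remaining genes of the 12 largest falls were LOX, COL1A1, COL12A1 and COL4A4, described with the matrix, MAGEA11 (-3.64 ± 0.19) and the embryonic globin HBE1 (-3.62 ± 0.24). In none of the 12 did a labelled KOs library reach a wt library, as the rule for naming them required.

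**Figure D4:**
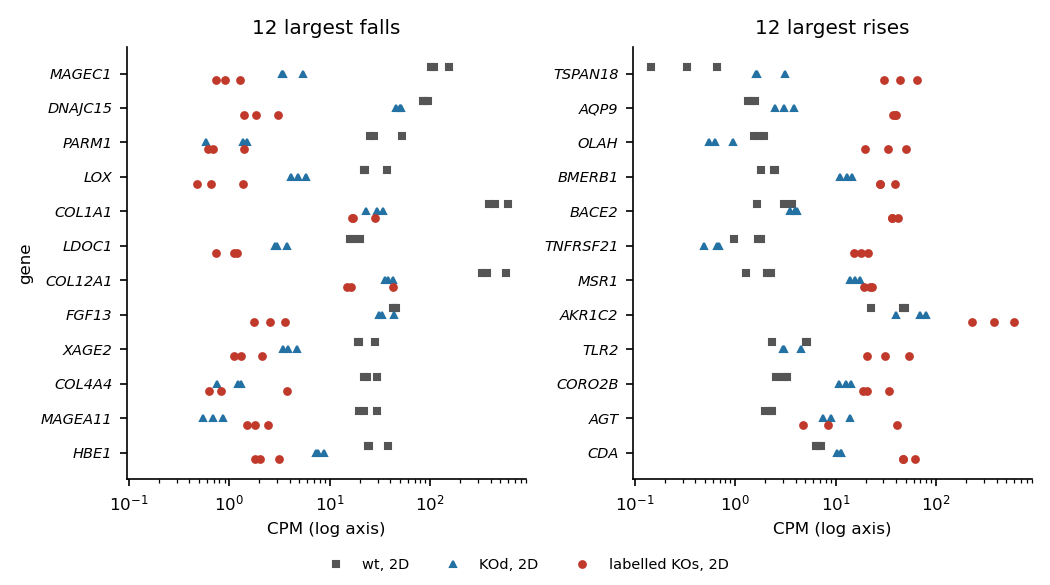
CPM on a log axis (x axis) of the 12 largest falls (left) and 12 largest rises (right) among genes past the test that average at least 2 in log2 CPM and whose labelled KOs and wt libraries do not overlap; each symbol is 1 adherent library. For PARM1, COL1A1 and COL4A4 the KOd libraries overlap the labelled KOs; for FGF13 they lie at 31.4 to 44.2 CPM, and for AQP9, OLAH, BACE2, TNFRSF21 and TLR2 at 4.49 CPM or below.

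The largest rises mixed transporters, innate immune receptors and enzymes. TSPAN18, a tetraspanin on chromosome 11, rose from 0.146, 0.335 and 0.667 CPM in wt to 64.9, 43.8 and 30.4 CPM (6.93 ± 0.41, adjusted p = 5.69e-10), against the fall of most of its chromosome. AQP9, a channel for water and glycerol, had 40.4, 38.9 and 37.1 CPM against 1.57, 1.34 and 1.45 CPM (4.73 ± 0.31, adjusted p = 2.15e-09). OLAH, a thioesterase that releases medium-chain fatty acids, and BMERB1, a microtubule-associated protein, rose by 4.31 ± 0.33 and 3.81 ± 0.16. BACE2, an aspartic protease related to the beta-secretase, had 36.8, 41.8 and 36.1 CPM against 3.7, 3.09 and 1.65 CPM (3.76 ± 0.20, adjusted p = 1.89e-10). Of receptors, the death-domain protein TNFRSF21 rose by 3.60 ± 0.19, the scavenger receptor MSR1 by 3.50 ± 0.18 and the bacterial lipopeptide receptor TLR2 by 3.06 ± 0.31. CORO2B, an actin-binding coronin, and CDA, cytidine deaminase, rose by 3.05 ± 0.20 and 2.96 ± 0.19. AGT, angiotensinogen, reached 41.1, 8.46 and 4.71 CPM from 1.98, 2.35 and 2.28 CPM, and replicate A held most of that rise. Without replicate A its log2 fold change was 1.58 (adjusted p = 6.43e-04). That of TSPAN18 was 7.57 without wt replicate C.

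Collagens fell in the largest share among the 5 matrix lists described here. Of 31 tested collagens 19 fell and 3 rose, with a median of -0.80 beside 0.06 over all tested genes; with the length trend removed 15 fell and 3 rose. COL1A1 (chr17:50184101-50201631), the main chain of type I collagen, had 28.2, 17.1 and 16.6 CPM in the labelled KOs against 388, 447 and 590.5 CPM in wt (-4.52 ± 0.23, adjusted p = 1.02e-10). COL12A1, a fibril-associated collagen, had 43.1, 16.2 and 15 against 364, 332 and 564 CPM (-4.08 ± 0.36, adjusted p = 6.65e-08), and the basement membrane chain COL4A4 3.77, 0.832 and 0.625 against 23.4, 22.1 and 29.5 CPM (-3.81 ± 0.46, adjusted p = 2.35e-06). COL4A1 and COL4A2, which share a promoter on chromosome 13, fell (-2.11 ± 0.29 and -0.93 ± 0.23). COL6A1 moved the other way, with 170.3, 108 and 135 against 64.1, 76.5 and 62 CPM (1.03 ± 0.14, adjusted p = 1.06e-05), and COL6A2 and COL15A1 also rose (0.37 ± 0.11 and 2.84 ± 0.41). Type VI chain COL6A3 was at 3973, 2568 and 2375 against 3590, 3222 and 3158 CPM, an adjusted p of 0.419, and at -0.43 without replicate A (adjusted p = 0.00908). Without replicate A, COL12A1 and COL4A4 were at -4.75 and -5.09, and COL6A2 missed the threshold without wt replicate A or C (adjusted p = 0.0715 and 0.0502).

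Collagen-modifying enzymes split. Of 20 tested, 7 rose and 5 fell, with a median of 0.23. LOX, the lysyl oxidase that crosslinks collagen and elastin, had 1.36, 0.483 and 0.653 CPM against 22.4, 21.8 and 37.7 CPM (-5.00 ± 0.38, adjusted p = 9.88e-09). PLOD2, which hydroxylates telopeptide lysines, had 56, 47.5 and 52.4 against 178, 171 and 185 CPM (-1.77 ± 0.09, adjusted p = 1.02e-10). The collagen chaperone SERPINH1, on chromosome 11, fell (-0.96 ± 0.19), while PPIB, a prolyl isomerase of the collagen modification complex, rose by 0.62 ± 0.10.

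Among 46 glycoproteins and proteoglycans of the matrix 17 fell and 9 rose, with a median of -0.29. FN1, fibronectin, had 4572, 2295 and 2259 CPM in the labelled KOs and 8539, 7584 and 8189 CPM in wt (-1.41 ± 0.20, adjusted p = 1.52e-05). EFEMP1, a fibulin, fell (-1.46 ± 0.15). THBS1, thrombospondin 1, had 774, 495 and 1072 against 2422, 2285 and 3548 CPM (-1.82 ± 0.27, adjusted p = 2.12e-05), and the fibrillin gene FBN1 fell (-1.91 ± 0.28). Members of the same kinds of molecule also rose. The cell-surface proteoglycan SDC1 had 188, 174 and 191 against 68.4, 73.9 and 57.5 CPM (1.47 ± 0.13, adjusted p = 8.71e-08). SPP1, osteopontin, rose by 3.08 ± 0.39 and the elastic fibre protein FBLN5 by 2.51 ± 0.34. With the length trend removed the list counted 10 lower and 12 higher members, so its balance changed with that trend.

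Proteases and their inhibitors rose more often than they fell, 12 against 6 of 28 tested, with a median of 0.24; with the length trend removed 11 rose and 3 fell, and without replicate A the median was -0.05. TIMP1, an inhibitor of matrix metalloproteinases, had 1582, 2788 and 2896 CPM against 819, 774 and 726 CPM (1.65 ± 0.21, adjusted p = 3.55e-06). TIMP3 rose by 2.00 ± 0.22 (adjusted p = 8.17e-07). PLAT, tissue plasminogen activator, had 237, 354 and 271 against 83.2, 81.5 and 58.6 CPM (1.95 ± 0.17, adjusted p = 4.33e-08), and SERPINE2, a serpin that inhibits it, rose by 1.20 ± 0.14. ADAMTS1, a proteoglycan-cleaving protease, fell to 3 reads in the labelled KOs from 298 in wt (ratio 143, interval 48.8 to 692; fitted log2 change -6.97, and -7.73 without replicate A). Of integrins, 5 of 17 fell and 3 rose: the common beta chain ITGB1 (-0.76 ± 0.09), ITGAV (-0.84 ± 0.11), and, upward, ITGB5 by 0.39 ± 0.08 and the collagen receptor chain ITGA11 by 2.20 ± 0.43. Without replicate A the change of ITGA11 was 1.06.

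Mesenchymal markers went both ways, and simple keratins rose. Of 21 mesenchymal markers and regulators 8 fell and 7 rose. CDH2, N-cadherin, had 133, 131 and 161 CPM against 271, 252 and 270.5 CPM (-0.90 ± 0.08, adjusted p = 1.01e-07), and the transcription factors TWIST1 and ZEB2 fell (-1.25 ± 0.14 and -1.16 ± 0.15). Vimentin (VIM) was at 5967, 5446 and 5124 against 4846, 5023 and 5329 CPM, with an adjusted p of 0.399, and TGM2 and SNAI1 rose (2.13 ± 0.31 and 1.26 ± 0.21). Of 15 tested epithelial and luminal markers 6 rose and 1 fell, and 2 fell without replicate A. The simple keratins KRT8 and KRT18, a filament pair, rose from 351, 394 and 474 to 931, 959 and 1119 CPM (1.30 ± 0.10, adjusted p = 1.60e-08) and by 0.95 ± 0.10. The basal and myoepithelial list had 7 higher and 3 lower genes of 16 tested (median 0.48). Without replicate A the counts were 5 higher and 4 lower (median 0.21). Its keratins KRT15 and KRT6A rose by 1.79 ± 0.34 and 1.86 ± 0.44 from wt means of 1.71 and 0.983 CPM, while EGFR, OXTR and TP73 fell. Among stem cell markers CD24 rose by 2.25 ± 0.61 and CD44 on chromosome 11 fell (-0.42 ± 0.10). Replicate A decided CD24, at 63.7, 6.58 and 9.6 against 4.94, 4.36 and 7.49 CPM: without A it was at 0.53 (adjusted p = 0.21), and TGM2 at 1.53.

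Cytokine genes rose more often than they fell. In a list of 29 cytokines, chemokines and other NF-kB targets there were 13 rises and 5 falls (median 0.51), and of 12 IL-1 family members and receptors 7 rose and 2 fell, while 1 fell with the length trend removed and 1 without replicate A (median 1.52). IL6 had 6.78, 14 and 7.01 CPM in the labelled KOs and 1.17, 1.79 and 1.26 CPM in wt (2.72 ± 0.29, adjusted p = 6.43e-07). IL1B had 2.27, 2.87 and 2.33 against 0.878, 0.335 and 0.432 CPM (2.17 ± 0.31, adjusted p = 1.53e-05), IL1A rose by 1.72 ± 0.33, and the IL-18 receptor chain IL18R1 by 1.77 ± 0.22. Falls included the anti-apoptotic gene BIRC3 and the cytokine IL18, both on chromosome 11 (-1.68 ± 0.11 and -0.96 ± 0.10), the chemokine CXCL1 (-2.79 ± 0.34) and the prostaglandin synthase PTGS2 (-3.23 ± 0.50). The acute-phase gene SAA1 had 82, 50.9 and 38.3 against 6.15, 7.27 and 8.67 CPM (2.96 ± 0.26, adjusted p = 5.31e-08), with the overlapping entry SAA2-SAA4 at 2.83 ± 0.29; reads of these near-identical genes may be split between them. Interferon-stimulated genes went both ways, 6 higher and 10 lower of 40. ISG15 and ISG20 rose by 1.82 ± 0.37 and 2.51 ± 0.43, and the sensors EIF2AK2 and OAS3 fell (-1.02 ± 0.09 and -1.17 ± 0.13). Without replicate A the interferon list counted 3 higher and 20 lower, with ISG15 and ISG20 at 0.99 and 1.61. PTGS2 was at -2.46 without wt replicate C.

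Genes induced by ERK signalling, many of which encode its own brakes, rose: 15 of 24 were higher and 1 lower, with a median of 0.53, and with the length trend removed 16 were higher and 2 lower; without replicate A 2 were lower. DUSP6, the ERK phosphatase, had 29.1, 42 and 18.9 CPM against 5.67, 6.82 and 5.02 CPM (2.36 ± 0.23, adjusted p = 2.77e-07). DUSP4 rose by 1.65 ± 0.16 (adjusted p = 1.55e-07) and SPRY4, a Sprouty inhibitor, from 52.9, 56.5 and 45 to 93.3, 106 and 104 CPM (0.98 ± 0.11, adjusted p = 1.79e-06). The immediate early gene FOS had 5.61, 6.52 and 3.38 against 0.805, 1.01 and 1.18 CPM (2.38 ± 0.45, adjusted p = 2.55e-04). CCND1, cyclin D1 on chromosome 11, was the 1 lower member (-0.81 ± 0.11). Upstream, the receptor EGFR had 59.4, 44.2 and 49.6 CPM against 118, 111 and 110.1 CPM (-1.15 ± 0.10, adjusted p = 6.70e-08). Of its family's ligands, NRG1 fell (-3.45 ± 0.45, adjusted p = 5.15e-06) and HBEGF rose by 1.80 ± 0.24 (adjusted p = 6.70e-06). Of 12 tested FGF ligands and receptors 4 fell, FGFR1 (-0.55 ± 0.08) among them, and none passed the test upward; with the length trend removed 2 fell.

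Redox and amino acid response genes rose more often than they fell. Of 32 NRF2 targets and redox enzymes 16 rose and 3 fell, with a median of 0.40. The aldo-keto reductases AKR1C1, AKR1C2 and AKR1C3, near-identical neighbours on chromosome 10 between which reads may be split, rose by 2.82 ± 0.33, 3.35 ± 0.38 and 2.45 ± 0.25. AKR1C2 had 595, 229 and 380.0 CPM against 47, 48.8 and 22.7 CPM. HMOX1, the inducible haem oxygenase, had 477, 569.5 and 1771 against 179, 175 and 177 CPM (2.41 ± 0.39, adjusted p = 5.12e-05), with replicate C far above A and B; without C it was at 1.56. FTL, the ferritin light chain, had 4320, 3250 and 3826 against 1878, 1812 and 1748 CPM (1.07 ± 0.12, adjusted p = 8.43e-07). The NRF2 targets NQO1, GCLM and SLC7A11 had adjusted p of 0.0872, 0.63 and 0.593, and their groups overlapped; NQO1 was at 0.55 without replicate B (adjusted p = 0.0188) and SLC7A11 at -0.54 without replicate C (adjusted p = 0.0398). Among 34 genes of the amino acid response under ATF4 18 rose and 3 fell (median 0.34), with SHMT2 and TRIB3 at 0.87 ± 0.08 and 1.14 ± 0.11 and the transporters SLC7A1 (chromosome 13) and SLC38A2 at -1.22 ± 0.10 and -1.12 ± 0.11. Without replicate A, 6 genes of the ATF4 list and 5 of the NRF2 list were lower. KOd, set against the same wt libraries, had 32 of the 34 ATF4 genes higher (median 1.64), and in labelled KOs against KOd 32 were lower and none higher.

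Genes of the respiratory chain, ribosome, proteasome and lysosome were higher as groups, and all but the lysosomal list are short, with median lengths of 950 to 1600 bases. Of 41 oxidative phosphorylation genes 33 rose and 4 fell (median 0.50), of 40 cytosolic ribosomal proteins 37 rose and none fell (0.62), and of 30 mitochondrial ribosomal proteins 22 rose and 2 fell (0.59). Of 31 proteasome subunits 21 rose and 2 fell (0.38), while 30 genes of autophagy and the lysosome had 21 rises and 3 falls (0.55). With the length trend removed the counts were 17 higher and 5 lower, 18 and 1, 17 and 3, 12 and 3, and 19 and 2 in the same order. The members that fell lay mostly on the 2 chromosomes that were low as a whole. SDHD, a membrane anchor of succinate dehydrogenase on chromosome 11, had 31.3, 33.1 and 32.6 CPM against 82.1, 75.8 and 65.8 CPM (-1.21 ± 0.09, adjusted p = 5.93e-09), and NDUFC2, NDUFV1 and COX8A, the other lower respiratory genes, are on chromosome 11 too; COX8A missed the threshold without replicate B or wt replicate B (adjusted p = 0.0589 and 0.0566), and NDUFV1 without wt replicate B (0.0583). LAMP1, the lysosomal membrane glycoprotein on chromosome 13, had 188, 182 and 160.2 against 426, 423 and 441 CPM (-1.28 ± 0.07, adjusted p = 3.50e-10), and the protease CTSF on chromosome 11 fell (-3.66 ± 0.26). Over these 5 lists none of the 15 members on chromosomes 11 and 13 rose. Rises above the median of their list included UQCRQ of complex III (0.80 ± 0.08), NDUFB8 of complex I (0.71 ± 0.07), RPS20 (0.99 ± 0.12) and MRPL24 (0.81 ± 0.09). PSMB7 (0.85 ± 0.12), the proton pump subunit ATP6V0D1 (0.92 ± 0.07) and the cholesterol carrier NPC2 (1.07 ± 0.13) were further such rises. Of the most abundant genes by CPM difference, ACTB, ACTG1, EEF2, EEF1A1, GAPDH and FLNA were also higher, by 0.37 to 0.69 in log2 units; GAPDH missed the threshold without replicate C or wt replicate B (adjusted p = 0.0669 and 0.052) and EEF2 without wt replicate A (0.0555).

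**Figure D5:**
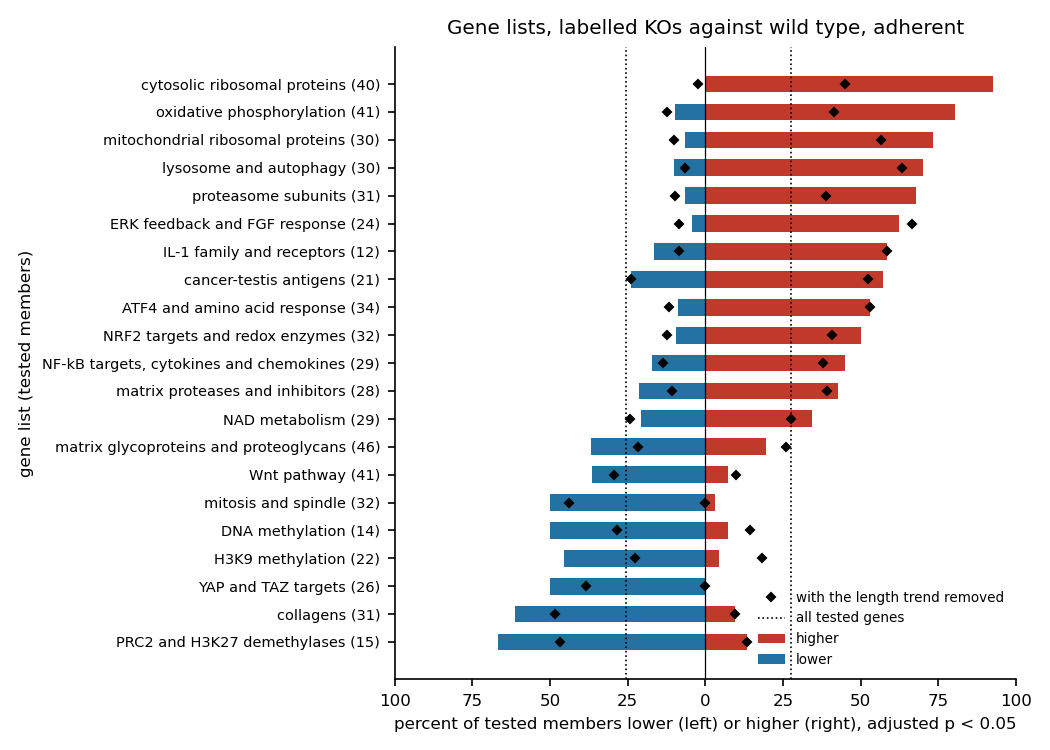
Percent of tested members of 21 gene lists that were lower (left) or higher (right) in labelled KOs than in wt (x axis, adjusted p under 0.05; y axis, list and number of tested members). Dotted lines give the shares over all tested genes, 25.5% and 27.7%, and diamonds the shares with the length trend removed. They draw the ribosomal and respiratory lists inward and leave the ERK feedback and IL-1 lists nearly in place.

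Lipid and sugar metabolism genes split within their pathways. Of 33 genes of sterol and fatty acid synthesis 11 rose and 4 fell (median 0.36), but without replicate A 3 rose and 19 fell (median -0.55), so this list's direction followed 1 library. Of 13 LXR targets and efflux genes 6 rose and none fell, among them the lysosomal cholesterol exporter NPC1 (0.71 ± 0.19) and the lipoprotein gene APOC1 (1.62 ± 0.45). Of 34 glycolysis and hypoxia genes 12 rose and 10 fell. CA9, a carbonic anhydrase induced by hypoxia, had 6.26, 27.3 and 14 against 85.2, 85.8 and 79.4 CPM (-2.40 ± 0.69, adjusted p = 0.00715), ALDOC fell (-3.71 ± 0.32) and LDHA on chromosome 11 (-0.62 ± 0.15), while VEGFA rose by 1.10 ± 0.14. CA9 was at -3.05 without replicate B. Glucocorticoid receptor targets, relevant because the medium holds hydrocortisone, counted 9 higher and 7 lower of 24, with PDK4 at 2.23 ± 0.30 (1.64 without replicate A) and KLF9 at -0.90 ± 0.10. Of 25 p53 targets 6 rose and 6 fell, with GDF15 at 2.12 ± 0.31 and PLK2 at -0.99 ± 0.24, and without replicate A 9 fell. Of 22 heat shock chaperones 6 rose and 7 fell; without replicate A 10 rose, and with the length trend removed 3 rose and 8 fell.

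Around the NNMT reaction itself, genes of NAD metabolism went both ways. Of 29 NAD metabolism genes 10 rose and 6 fell, shares near those of all genes, with a median of 0.12. TDO2, which opens the tryptophan ring, had 16.6, 9.93 and 8.86 CPM against 2.89, 2.57 and 1.02 CPM (2.44 ± 0.26, adjusted p = 5.54e-07). KYNU, kynureninase, had 51.4, 58.4 and 31.7 against 11.4, 9.95 and 6.95 CPM (2.32 ± 0.19, adjusted p = 2.87e-08). QPRT, which links tryptophan breakdown to NAD, was at 4.44, 0.322 and 0.17 against 0.11, 0.149 and 0.235 CPM; without replicate A it was at 0.59 (adjusted p = 0.492). NADSYN1, NAD synthetase on chromosome 11, fell (-0.77 ± 0.07), and SIRT2 rose by 0.63 ± 0.10. NAMPT, which returns nicotinamide to NAD, was at 116, 127 and 94.1 against 139.8, 134 and 128 CPM with an adjusted p of 0.112, and at -0.35 without replicate B (adjusted p = 0.04999). Of 32 methionine cycle, polyamine and one-carbon genes 11 rose and 6 fell (median 0.30). AHCY, which clears S-adenosylhomocysteine, had 547, 552 and 532 against 349, 358 and 352 CPM (0.62 ± 0.06, adjusted p = 2.42e-07), and MAT2A, which makes S-adenosylmethionine, 159, 250.5 and 243 against 222, 216 and 200.0 CPM (adjusted p = 0.878). Among small-molecule methyltransferases GAMT, which makes creatine, fell (-3.73 ± 0.23, adjusted p = 1.07e-09), and the histamine methyltransferase HNMT rose by 2.70 ± 0.24 (adjusted p = 7.34e-08).

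Before the length trend was removed, writers and erasers of repressive chromatin marks were lower in larger shares than all tested genes. These lists hold long genes, with median lengths of 4689 to 5389 bases. Of all tested genes of 3810 to 5576 bases 33% were lower, and of longer ones 45.7%. With the length trend removed 3606 of all 16323 tested genes were lower. Of 15 members of PRC2, which methylates histone H3 at lysine 27, and its demethylases, 10 fell and 2 rose (median -0.38). With the length trend removed 7 fell and 2 rose. EED, the core subunit on chromosome 11, had 10.6, 12.3 and 14.9 CPM against 31.1, 32 and 28.6 CPM (-1.28 ± 0.12, adjusted p = 1.16e-07). SUZ12 had 62.8, 70.2 and 72.7 against 114, 104 and 119 CPM (-0.72 ± 0.08, adjusted p = 5.90e-07), AEBP2 and JARID2 fell (-0.89 ± 0.10 and -0.61 ± 0.09), and the methyltransferase EZH2 (-0.42 ± 0.15). Of 22 genes of H3K9 methylation 10 fell and 1 rose, and 5 and 4 with the length trend removed. Of 14 DNA methylation genes 7 fell and 1 rose, and 4 and 2 with the length trend removed. TET1, a 5-methylcytosine oxidase, had 3.54, 1.88 and 2.47 against 17.2, 16.5 and 19.1 CPM (-2.74 ± 0.28, adjusted p = 3.19e-07), TET2 fell (-1.06 ± 0.11) and the maintenance methyltransferase DNMT1 (-0.58 ± 0.16). Without replicate A, 3 H3K9 genes and 4 DNA methylation genes were higher, and EZH2 missed the threshold (adjusted p = 0.093), as it did without wt replicate C (adjusted p = 0.106).

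Mitotic genes were lower more often than higher in 2D. Of 32 mitosis and spindle genes 16 fell and 1 rose (median -0.31), and 14 and none with the length trend removed. CENPE, a kinetochore motor, had 13.5, 18.1 and 11.4 CPM against 83.9, 84.5 and 86.8 CPM (-2.57 ± 0.28, adjusted p = 6.54e-07), and ASPM 60.8, 60.3 and 45.8 against 213, 203 and 234 CPM (-1.96 ± 0.20, adjusted p = 4.59e-07). CENPF and KIF11 fell (-1.64 ± 0.24 and -0.85 ± 0.12) and the proliferation marker MKI67 (-2.10 ± 0.36). The mitotic cyclin CCNB1 and the kinase AURKA overlapped between groups (adjusted p = 0.859 and 0.442). Of 32 replication and G1/S genes 8 fell and none rose, and 7 and 1 with the length trend removed. The 8 are a share near the 25.5% lower over all tested genes, and 4 of them lie on chromosomes 11 and 13. Without replicate A, 4 mitotic and 5 replication genes were higher. RFC3 on chromosome 13 fell (-1.64 ± 0.19) and the S-phase cyclin CCNE2 (-1.47 ± 0.21). CDK6, partner of the D cyclins, fell (-1.46 ± 0.13), while CCND3 and the inhibitor CDKN1A rose by 0.97 ± 0.09 and 0.99 ± 0.17. In 3D these lists turned. Against wt 25 mitotic genes were higher there and none lower, and 26 replication genes were higher and 2 lower. Over all tested genes 27.8% were higher and 28.5% lower in 3D. By the interaction of pool and culture, 29 mitotic and 28 replication genes had a higher change in 3D and none a lower one.

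Among 26 targets of YAP and TAZ there were 13 falls and no rise (median -0.36; 10 and none with the length trend removed). AMOTL1 on chromosome 11 had 18.9, 17 and 18.6 CPM against 77.3, 74.3 and 73.1 CPM (-2.04 ± 0.08, adjusted p = 4.08e-12), and CRIM1 346, 290.5 and 364 against 706, 663 and 764 CPM (-1.09 ± 0.08, adjusted p = 7.37e-09). The secreted targets CCN1 and CCN2 overlapped between groups (adjusted p = 0.81 and 0.313), and CCN2 was at -0.67 without replicate C (adjusted p = 7.95e-04). Of 41 Wnt pathway genes 15 fell and 3 rose (median -0.28); with the length trend removed 12 fell and 4 rose (median -0.05). LEF1, a nuclear partner of beta-catenin, had 0.764, 0.322 and 0.369 against 10.6, 9.99 and 15.3 CPM (-4.59 ± 0.30, adjusted p = 2.02e-09). The secreted inhibitor DKK1 fell (-2.85 ± 0.42), the receptors FZD4, FZD6 and LRP5 (-1.93 ± 0.26, -0.98 ± 0.10 and -1.27 ± 0.13), and the feedback gene AXIN2 (-0.94 ± 0.22). CTNNB1, beta-catenin, rose by 0.29 ± 0.07. Of 40 BMP and TGF-beta genes 11 rose and 9 fell, with BMP4 at -4.44 ± 0.31 and LTBP1 at 1.59 ± 0.12. In the IGF system IGFBP2 rose from 0.183, 0.373 and 0.392 to 9.34, 7.79 and 6.42 CPM (4.63 ± 0.27, adjusted p = 4.05e-10), and IGFBP3 fell to 1 read from 77 (ratio 111, interval 19.8 to 4366), its 1 read being in replicate C (fitted log2 change -6.26, and -7.95 without C). DKK1 was at -3.46 without replicate C, and BMP4 at -5.18 without replicate A.

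Cancer-testis antigens, germline proteins often expressed in tumours, went both ways. Of 21 tested, 12 rose and 5 fell. All 7 that lie beyond 150 Mb on chromosome X, where most genes were higher, rose, with a median of 1.01, among them MAGEA3 (1.08 ± 0.14), MAGEA6 (1.01 ± 0.14) and CSAG1 (1.24 ± 0.11). That bound was taken from these same data and the 7 count among the genes of the region, so the split is partly set in advance. Of the 14 elsewhere 5 rose and 5 fell. MAGEA genes are near-copies of one another, and their reads may be shared. PAGE5 rose by 1.55 ± 0.09 (adjusted p = 3.37e-10). On chromosome 5 the protocadherin clusters, adhesion genes read from tandem first exons, lay in a window with a median of 0.70. There 46 of 96 genes were higher and 11 lower, KOd had a median of -0.02 and the labelled KOs in 3D one of -0.46. Of 40 tested genes of the protocadherin and cadherin list 11 rose and 13 fell in 2D (median -0.09). PCDHB6 and PCDHGC3 rose by 1.76 ± 0.37 and 1.32 ± 0.20, and PCDHB2 fell (-3.12 ± 0.35). Gene models of the gamma cluster share exons, so its members are not separate measurements.

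Axon guidance genes and developmental regulators changed in both directions. Of 47 semaphorin, netrin, Slit and ephrin genes 13 rose and 9 fell; without replicate A 10 rose and 14 fell, and with the length trend removed 17 rose and 7 fell. SEMA3A, a secreted repellent, had 7.55, 4.94 and 2.84 CPM against 0.622, 0.671 and 0.51 CPM (3.08 ± 0.32, adjusted p = 3.76e-07), and the ephrin receptor EPHB2 28.9, 44.6 and 53.3 against 8.35, 8.05 and 3.81 CPM (2.65 ± 0.28, adjusted p = 5.36e-07). The ephrin receptor EPHA3 fell (-2.62 ± 0.24). Of 21 HOX genes 3 rose and 5 fell, and with the length trend removed 2 and 9. HOXB7 had no read in the labelled KOs against 27 reads in wt (at least 12.9-fold lower, adjusted p = 2.55e-04), HOXD8 had 1 read against 18 (ratio 25.8, interval 4.64 to 1021, adjusted p = 1.75e-04) and HOXB13 rose by 1.54 ± 0.41, while the other 13 did not pass the test. The 1 read of HOXD8 was in replicate C. Of 20 imprinted genes 4 rose and 5 fell. The maternally expressed RNA MEG3 had no read in 3 libraries of labelled KOs against 109 reads in wt (at least 52.2-fold lower), and KCNQ1OT1, the noncoding RNA of the chromosome 11 imprinted cluster, fell (-3.29 ± 0.57). SNRPN and SNURF, which overlap, rose by 1.18 ± 0.10 and 1.19 ± 0.10.

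Nuclear long noncoding RNAs NEAT1 and MALAT1, neighbours on chromosome 11, fell below the median of that chromosome. NEAT1 had 15.9, 13 and 7.44 CPM in the labelled KOs, 109.8, 129 and 74.8 CPM in wt and 231, 229.6 and 209 CPM in KOd (-3.11 ± 0.49, adjusted p = 4.19e-05). MALAT1 had 8.5, 3.95 and 3.41, 30.3, 31.4 and 41.2 and 30.8, 34.2 and 40.8 CPM in the same order (-2.68 ± 0.38, adjusted p = 1.62e-05). The snoRNA host SNHG1, also on chromosome 11, fell (-1.43 ± 0.19). The mitochondrial ribosomal RNAs RNR1 and RNR2 rose by 1.46 ± 0.23 and 0.96 ± 0.22, while the 10 tested copies of the 28S and 45S nuclear ribosomal RNA fell and the 10 of 18S and 5.8S rose. Without replicate A 5 of these 20 entries were higher and 10 lower, and with the length trend removed 10 were higher and 6 lower; these copies are identical in part and their reads cannot be told apart.

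Markers of other cell types were checked in the same libraries. Of 16 leukocyte markers 7 had enough reads to test, of which 2 rose and none fell (median 0.88). Their summed level was 64.1 to 106.4 CPM in the labelled KOs and 25.2 to 32.7 CPM in wt. Most of it was CD68, a lysosomal glycoprotein also made outside leukocytes, which rose by 1.71 ± 0.16 (102, 103 and 61.4 against 30.7, 28.7 and 22.2 CPM), while PTPRC, the defining leukocyte marker, was at 2.03, 0.617 and 1.22 against 0.988, 1.12 and 1.84 CPM (adjusted p = 0.976). Of 10 endothelial markers 7 were tested, of which 3 rose and none fell (median 1.11), with a summed level of 156.2 to 175.4 CPM against 121 to 125.6 CPM. PECAM1 rose by 1.37 ± 0.29 from a wt mean of 2.66 CPM and was at 0.85 without replicate A. Of 9 tested fibroblast markers 2 rose and 3 fell, among them PDGFRA (1.42 ± 0.27) and FAP (-0.89 ± 0.33); FAP overlapped between groups and missed the threshold without replicate B or C or without wt replicate A or B (adjusted p from 0.0915 to 0.12). Of the markers of the labelled line, VIM and KRT8 were well above 100 CPM in every library compared, and ERBB2 had 99, 69.1 and 61.8 against 86.2, 90.9 and 94.8 CPM and was at -0.47 without replicate A (adjusted p = 0.00761). The part of cells of other types in these results was not tested.

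The labelled KOs were then set against KOd, a direct test that needs no wt library. The library differences described for wt hold here too. Reads were 39789580 to 43744817 in labelled KOs and 27446415 to 28096404 in KOd. Nuclear ribosomal RNA took 0.696% to 2.38% and 5.05% to 6.56%. The length trend was not removed for this comparison. At an adjusted p under 0.05, 5017 genes (30.7%) were higher and 4704 (28.8%) lower in labelled KOs than in KOd, 59.6% in all. With libraries scaled by their totals alone the split was 3844 and 5711. Ranked by the smaller of the rises over wt and over KOd, the leading genes were AQP9, BACE2, TLR2, CEMIP, CYFIP2, SAA1, AKR1C2 and SAA2-SAA4. CEMIP, which degrades hyaluronan, had 51.9, 9.21 and 8.26 CPM in labelled KOs, 2.38, 1.98 and 4.91 in wt and 2.44, 1.99 and 1.07 in KOd, a log2 difference from KOd of 3.66 ± 0.61 (adjusted p = 4.84e-05). Replicate A was far above B and C, and without it the change of CEMIP against wt was 1.51. TLR2 had 54.4, 30.8 and 20.7, 5.09, 5.25 and 2.35 and 3.02, 3.04 and 4.49 CPM (3.33 ± 0.32, adjusted p = 8.82e-08). CYFIP2, a subunit of the actin-regulating WAVE complex, differed from KOd by 3.23 ± 0.27 (adjusted p = 2.06e-08). Ranked likewise downward they were PALD1, DNAJC15, FGF13, TFAP2A, NEAT1, CEP295, MALAT1 and PIDD1. PALD1, a phosphatase-like gene, had 0.263, 0.617 and 0.568 CPM against 16.1, 18.8 and 18 in wt and 25.4, 23.1 and 23 in KOd. TFAP2A, the AP-2 alpha transcription factor of epithelial and neural crest cells, had 2.44, 1.58 and 1.39, 19, 20.8 and 25.3 and 21.1, 21.5 and 24.7 CPM (-3.62 ± 0.16, adjusted p = 1.29e-11). Of these genes, NEAT1, CEP295, MALAT1 and PIDD1 lie on chromosome 11. COL1A1, low in both pools, did not pass the test against KOd (-0.48 ± 0.21, adjusted p = 0.0554).

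Last, the change of labelled KOs in 2D was compared with that in 3D by the interaction of pool and culture, in which 2917 genes (17.9%) had a higher and 3095 (19%) a lower change in 3D, 36.8% in all. With library totals alone these were 4333 and 1899. NNMT did not pass the test between labelled KOs and wt in 3D either (-0.21 ± 0.17), with an interaction of -0.08 ± 0.24 (adjusted p = 0.84). AKR1C2, higher in 2D, was at -0.73 ± 0.35 in 3D, with an interaction of -4.07 ± 0.51 (adjusted p = 1.48e-05). TNFRSF21 was higher in 2D and lower in 3D (-1.21 ± 0.16; interaction -4.80 ± 0.25, adjusted p = 1.44e-09). The fall of COL1A1 was deeper in 3D (-7.09 ± 0.26; interaction -2.57 ± 0.29, adjusted p = 4.35e-06), and that of LOX was -5.21 ± 0.37 in 3D, with an interaction of -0.20 ± 0.51 (adjusted p = 0.795). SAA1 rose further in 3D (7.26 ± 0.31; interaction 4.30 ± 0.36, adjusted p = 2.16e-07). NEAT1 and MALAT1, low in 2D, were at 0.33 ± 0.44 and 0.13 ± 0.34 in 3D (interaction 3.44 ± 0.65 (adjusted p = 5.68e-04) and 2.81 ± 0.51 (adjusted p = 4.05e-04)). The ERK genes DUSP6 and DUSP4 were at -0.19 ± 0.21 and 0.14 ± 0.15 in 3D, with interactions of -2.55 ± 0.31 (adjusted p = 1.05e-05) and -1.51 ± 0.21 (adjusted p = 4.71e-05). Medium, attachment and RNA kit differ between 2D and 3D and cannot be told apart.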

How the data were processed

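RNA of 20 samples of the line was sequenced from stranded TruSeq mRNA libraries, per the labels' protocols. Reads were aligned to hg38 with STAR, per the submitters' processing notes; the counting tool, its strand setting and the annotation are not given in the sources used here, so reads of overlapping and antisense genes may be mixed. The authors deposited 1 table of raw counts per gene by Entrez ID, with gene lengths; 27740 of 27864 rows were paired with a symbol of RefSeq's GRCh38.p14, from which gene positions and promoters were taken. Groups were read from sample titles. Counts were filtered with filterByExpr (16323 genes), scaled by TMM and tested with edgeR 4.0.16 (quasi-likelihood test, R 4.3.3) over all 20 libraries in 7 groups, with p-values adjusted by Benjamini-Hochberg over all tested genes and called under 0.05. CPM are counts per 1e6 of the TMM-scaled library totals, and an SE is the size of the log2 change divided by the square root of edgeR's F statistic. Ratios of few reads use the same totals and have exact Poisson intervals, and genes without a read use a floor of 3 reads over the group; both cover counting error only. Tested on simulated counts for this comparison (15680 genes), the fit recovered 25.5% of changes of 0.5, 75.8% of 1 and 92% of 2 in log2 units. Of 138 calls 3.62% were false. Only 47, 99 and 50 genes were changed by these sizes, and every group was drawn with the same spread. No length trend, regional shift or outlying replicate was simulated. These rates therefore need not hold in the real comparison, where 53.2% of tested genes were called.

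Genes were named by rules: tested genes within 1 Mb of NNMT, the 12 largest changes in each direction among genes that average 2 or more in log2 CPM and have no overlap of groups, the 8 largest against both wt and KOd, genes on in one group and off in the other, the 10 largest differences of mean CPM in each direction, and up to 4 members of each gene list with the smallest adjusted p. The members and lists were chosen with earlier results of these data known, and genes named outside the rules were chosen after their values were seen. Alternatives covered scaling, filters, DESeq2 1.42.0, limma 3.58.1, the compared libraries alone, equal depth, a replicate block and leaving out each library; removal of the length trend and of chromosomes 11, 13 and 17 was chosen after seeing the data. The main fit did not treat replicate letters as pairs. A few genes are not reported here.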

Additional observations from a re-analysis of the deposited data

Results flagged for a closer look

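Of 34 genes named as the largest changes against wt, or against both wt and KOd, 22 had a log2 change against wt that differed between 3D and 2D by the interaction test (edgeR, adjusted p under 0.05). Over all tested genes 36.8% passed that test. The change was smaller or turned in 3D for 16 of the 22 and larger for 6. These genes were chosen for large changes in 2D, so smaller changes in 3D follow in part from that choice. The differences below are 3D minus 2D, in log2 units. Genes higher in 2D whose rise was smaller or turned in 3D were TNFRSF21 (-4.80), AKR1C2 (-4.07), BMERB1 (-3.69), TSPAN18 (-3.51), AGT (-2.62) and OLAH (-2.01). Rises that were larger in 3D were those of SAA1 (4.30), SAA2-SAA4 (4.29), BACE2 (2.12) and AQP9 (2.11). Falls that were smaller or absent in 3D were those of NEAT1 (3.44), MALAT1 (2.81), PIDD1 (2.62), CEP295 (2.18), TFAP2A (1.56), XAGE2 (1.25), MAGEC1 (1.23), HBE1 (0.89), FGF13 (0.80) and DNAJC15 (0.58). Falls that were deeper in 3D were those of COL1A1 (-2.57) and LDOC1 (-1.18). Medium, attachment and RNA extraction kit differ between the cultures and cannot be told apart.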

How the results depend on the processing

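Over 21 alternatives the count of genes higher in labelled KOs stayed within 1.5 times of 4524, except in fits of the 6 compared libraries alone. These gave 2851 higher and 3202 lower of 14230 tested, and 2495 and 2959 with a replicate block. Both fits have fewer samples and take the spread from these 6 libraries alone. With a replicate block over all 20 libraries the counts were 4449 and 4159. Same-letter libraries of labelled KOs and wt correlated at -0.0241, 0.0743 and 0.0474 in their deviations from group means. Different-letter libraries of these groups correlated at -0.116 to 0.0571. Such values cannot tell whether same-letter libraries were handled together, which the labels do not say. Leaving out 1 library gave 3869 to 4625 higher and 3736 to 4612 lower genes. Scaling by totals alone lowered the share of higher calls against KOd from 51.6% to 40.2% and raised that of the interaction from 48.5% to 69.5%, where the median over all genes moved to -0.12 and 0.18.

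Of 209 called genes named in the text, 192 stayed past the threshold with the same sign in every alternative and none reversed. NNMT passed the threshold without the 3 libraries that stand apart (replicate A of the adherent labelled KOs, and in 3D replicate C of both wt and KOd; -0.31) and with the length trend removed (-0.42), and ran from -0.31 to 0.055 when 1 library was left out. Uncalled genes changed sign as follows. With the length trend removed COL6A3 was at 0.30, PTPRC 0.28, REXO2 -0.32 (adjusted p = 0.015, edgeR), SLC7A11 0.31 and VIM -0.044; without the 3 libraries CCN2 was at 0.0065 and CCNB1 at 0.12. At equal depth DRD2 was at 0.42 and PTPRC at 0.23. MAT2A was at -0.031 with totals alone and -0.010 with the replicate block in the compared libraries alone. With 1 library left out, CCN1 ran from -0.19 to 0.13, CCN2 ran from -0.67 to 0.0080, CCNB1 ran from -0.14 to 0.12, DRD2 ran from -3.39 to 0.76, GCLM ran from -0.23 to 0.29, MAT2A ran from -0.080 to 0.22, PTPRC ran from -0.52 to 0.31, REXO2 ran from -0.065 to 0.20 and SLC7A11 ran from -0.54 to 0.066. For these the cause was not tested. Genes under about 1 CPM rest on few reads, which limits their folds.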

Other observations

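Among the wt libraries, replicate C held the highest CPM for many of the genes that were low in the labelled KOs. It was the highest of the 3 wt libraries for 37.8% of all tested genes, for 718 of the 1435 genes lower by 2-fold or more (50%) and for 28.7% of the genes higher by 2-fold or more. Of the 18 genes named as the 12 largest falls or as off in the labelled KOs, it was the highest for 17. Genes enter these sets of falls in part through a high wt level, so a high replicate C helps a gene to be counted. Replicate C also had the largest ribosomal RNA share of the 3 wt libraries, 6.69% against 2.83% in A and 4.09% in B. BEX1, for example, was at 32.8, 35.5 and 82.2 CPM in wt replicates A, B and C, and CADM1 at 27.4, 29.7 and 55.8 CPM.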
